A study of Mus musculus with 2 samples.

Results

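Peptide hormones are made as longer precursors and are cut and finished inside the secretory granule. The genes described here encode 10 proteins of that pathway: the convertases Pcsk1, Pcsk2 and Furin, the convertase partners Scg5 and Pcsk1n, the carboxypeptidases Cpe and Cpd, the amidating enzyme Pam, and the glutaminyl cyclases Qpct and Qpctl. They were chosen by name, were matched by Ensembl gene ID and symbol, and are 10 of the 38924 genes listed for each library. The RNA came from pancreatic islets, the hormone-secreting part of the pancreas, of male mice aged 10 weeks. CAST (CAST/EiJ) mice, inbred from the wild subspecies castaneus, were set against B6 (C57BL/6J) mice, the laboratory strain behind the mouse reference genome. All mice ate the same standard chow, no treatment or engineered allele is named, and islets were kept in buffer with 16.7 mM glucose while they were purified. Islets of 2 mice per strain were pooled and 250 of them gave each library, so each strain is 1 library and no difference between the strains could be tested.

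In islet cells the convertases cut a precursor after paired basic residues, Pcsk1 and Pcsk2 in the granule and Furin earlier, in the Golgi. The carboxypeptidase Cpe then trims the exposed basic residues from the new end. Pam turns a C-terminal glycine into an amide, a step that amylin, pancreatic polypeptide and peptide YY need for their mature form, and the glutaminyl cyclases close an N-terminal glutamine into pyroglutamate. Cutting and trimming turn proinsulin, proglucagon and prosomatostatin into their hormones.

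Scg5 and Qpct were the processing genes that stood far higher in CAST, and Pam was the one with the lowest ratio of CAST over B6. Levels are given as TPM, the share of all transcript molecules in parts per 1000000, which corrects for length and can be compared between genes. Ratios between the strains are those of counts after TMM scaling, which sets the libraries to a common scale from the bulk of genes, and their 95% intervals cover counting error only. All 10 genes passed the minimum of 100 counts over the pair of libraries. Of these, 2 (Scg5 and Qpct) reached a 2-fold excess in CAST, as did 7.18% of all 14768 genes past the same minimum. In the other direction 0 of the 10 reached a 2-fold excess in B6, as did 5.99% of all genes. The other 8 were within 2-fold, and 7 of the 10 lay within 0.25 of equality on the log2 scale. The median log2 ratio of CAST over B6 was -0.09 for the 10 genes and 0.02 for all genes.

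The libraries held 104324693 counts in CAST and 76600970 in B6. The 10 beta cell markers were all past the minimum, and their summed level was 558011 TPM in CAST and 490896 TPM in B6. Most of that sum was Ins2, at 477729 TPM in CAST and 404421 TPM in B6. Ins1 and Slc2a2 were also higher in CAST by TPM, and the other markers of the list were lower, such as Iapp at 22355 TPM in CAST and 28752 TPM in B6. After TMM scaling 7 of the 10 had a log2 ratio above 0. The 8 alpha cell markers summed to 39351 TPM in CAST and 65943 TPM in B6, and the 6 delta and PP cell markers to 11502 TPM in CAST and 15632 TPM in B6, in which Sst was at 3489 TPM in CAST and 8290 TPM in B6 and Ppy at 6300.5 TPM in CAST and 5152 TPM in B6. Markers of exocrine acinar cells, which surround islets, were higher in CAST, with 9 of 12 at least 2-fold higher in CAST, a sum of 16506 TPM in CAST against 5434 TPM in B6, and none at 0 counts. The other 3 were transcription factor genes within 2-fold: Ptf1a (log2 0.43, -0.06 to 0.95), Rbpjl (0.36) and Bhlha15 (0.17, and -0.17 by TPM with 1 added). Fibroblast markers summed to 50.7 TPM in CAST and 26.6 TPM in B6, with 5 of 8 at least 2-fold higher in CAST. By TPM with 1 added, Thy1 (log2 2.07) stayed past 2-fold, and Col1a1 (0.51), Dcn (0.84), Lum (0.91) and Pdgfra (0.15) did not. Of the duct markers 3 of 6 past the minimum were at least 2-fold higher in CAST, although the sum of the list was 103 TPM in CAST and 133 TPM in B6. Most of that sum was Krt7, at 54.0 TPM in CAST and 92.0 TPM in B6. By TPM with 1 added, Krt19 (log2 2.05) stayed past 2-fold, and Muc1 (0.56) and Spp1 (0.75) did not. In bulk islets fewer cells of a type and less RNA per cell cannot be told apart, and the part of these other cells in the ratios below was not tested. CAST reads were assigned to transcripts of the B6-based reference, and the part of strain variants in the ratios was also not tested.

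Cpe was the most abundant processing gene in each library, at 1806 TPM in CAST and 2184 TPM in B6, and ranked 25 in CAST and 16 in B6 among all genes. In CAST it was followed by Scg5, Pcsk2, Pcsk1n, Pcsk1 and Pam, and in B6 by Pcsk2, Scg5, Pcsk1n, Pcsk1 and Pam, so that Scg5 and Pcsk2 exchanged places. The remaining genes were much lower. In CAST they ran from Qpct at 20.6 TPM through Cpd and Furin to Qpctl at 10.5 TPM, and in B6 from Furin at 22.5 TPM through Cpd and Qpctl to Qpct at 2.25 TPM. Cpe, Scg5, Pcsk2 and Pcsk1n together held 93.5% of the TPM of the 10 genes in CAST and 90.8% in B6. With 1 library per strain, whether neighbours in these orders, such as Cpd at 15.4 TPM and Furin at 15.4 TPM in CAST, differ beyond the spread between mice cannot be told.

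**Figure D1:**
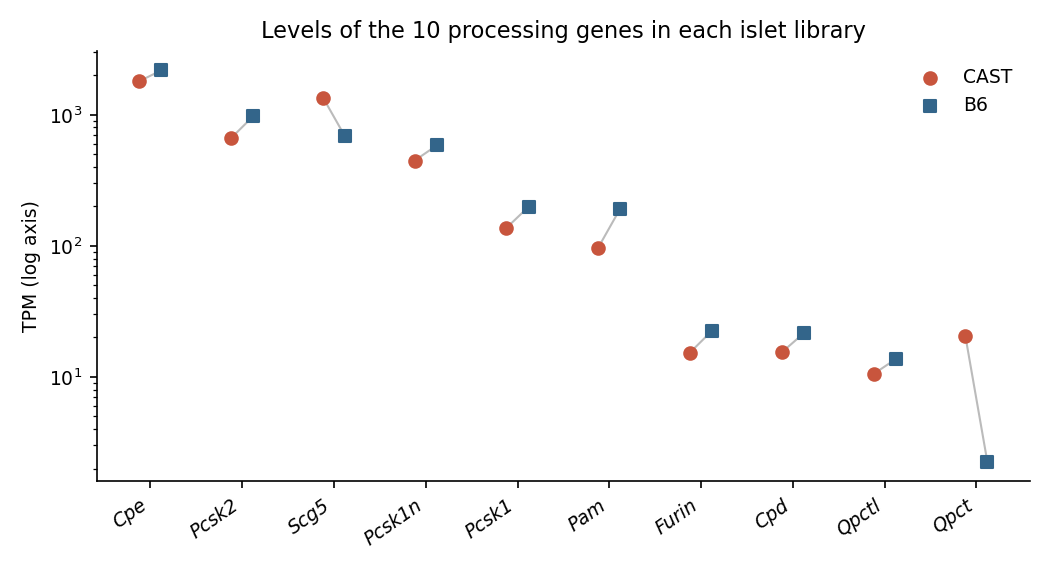
TPM (log axis) of the 10 processing genes, with a circle for the CAST library and a square for the B6 library, ordered by the B6 level. Most genes sit lower in CAST on this scale, Pam by the widest ratio (97.0 TPM in CAST, 193 TPM in B6). Scg5 (1354 TPM in CAST, 685 TPM in B6) and Qpct (20.6 and 2.25 TPM) sit higher in CAST. By TPM with 1 added the median log2 ratio of CAST over B6 was -0.26 over all genes.

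The convertases differed little between the strains. Pcsk2, the convertase that completes glucagon and also acts on proinsulin (chromosome 2, 143546156 to 143816285, GRCm38), had 309835 counts in CAST and 293239 in B6, or 665 TPM in CAST and 976 TPM in B6. After scaling it was 1.16-fold higher in B6 (log2 -0.21, interval -0.22 to -0.20). Pcsk1, the convertase of proinsulin (chromosome 13, 75089826 to 75134861), had 35817 counts in CAST and 33325 in B6, which is 137 TPM in CAST and 198 TPM in B6 and a log2 ratio of -0.19 (-0.21 to -0.16). The balance of Pcsk2 to Pcsk1 was nearly the same in each library, at 4.84 TPM of Pcsk2 per TPM of Pcsk1 in CAST and 4.92 in B6. Nearly all Pcsk1 counts fell on the coding transcript. A second Pcsk1 transcript, with a retained intron, had 6.50 counts in CAST and 55.8 in B6.

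Furin, which cuts precursors on the way through the Golgi (chromosome 7, 80388585 to 80405436), had 6428 counts in CAST and 6138 in B6, with 15.4 TPM in CAST and 22.5 TPM in B6 and a log2 ratio of -0.22 (-0.27 to -0.17). Its 2 leading transcripts have the same coding exons and differ in the first exon, so their levels report 2 separate starts of the gene. Furin-203, from the start nearer to the coding exons, was at 11.1 TPM in CAST and 17.4 TPM in B6, and Furin-201, from the start farther upstream, at 3.41 TPM in CAST and 3.67 TPM in B6. Furin-203 took 77.0% of the counts of the pair in CAST (exact Clopper-Pearson interval 75.9 to 78.0) and 83.0% in B6 (82.0 to 84.0). By these estimates the nearer start led in each strain, with a lower share in CAST. The intervals leave out the uncertainty of dividing reads between transcripts with the same coding exons, so whether the shares differ between the strains cannot be told.

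The 250 bases before the RefSeq start nearest to each of these Furin transcripts are shown. That start lies 5 bases upstream of the GENCODE start for Furin-201 and 50 bases upstream for Furin-203. The windows are RefSeq sequences of GRCm38.p6, minus strand, in lower case, with TATAAA and GGGCGG, searched on each strand, in capitals. The upper window is chr7:80405437-80405686 and the lower chr7:80402813-80403062.
upstream of Furin-201: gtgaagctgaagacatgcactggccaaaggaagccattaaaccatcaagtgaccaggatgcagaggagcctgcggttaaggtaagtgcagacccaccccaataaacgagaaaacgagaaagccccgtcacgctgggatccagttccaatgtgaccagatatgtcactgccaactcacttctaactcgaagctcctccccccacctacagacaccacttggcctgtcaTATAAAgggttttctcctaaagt
upstream of Furin-203: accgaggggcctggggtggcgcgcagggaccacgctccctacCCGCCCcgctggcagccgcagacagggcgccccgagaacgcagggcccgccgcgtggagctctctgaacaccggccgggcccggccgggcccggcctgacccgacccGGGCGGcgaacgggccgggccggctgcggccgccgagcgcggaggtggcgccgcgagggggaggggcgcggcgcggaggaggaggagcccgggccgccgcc

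The windows differ widely in composition. The window before Furin-201 held 1 TATAAA, 0 GGGCGG and 6 CpG dinucleotides, with 50.4% G or C. The window before Furin-203 held 0 TATAAA, 2 GGGCGG and 40 CpG dinucleotides, with 83.2% G or C. Among 32817 such windows in the table, 12.4% held TATAAA and 32.7% GGGCGG, and the median number of CpG dinucleotides was 6. A match describes the letters and is not a measured site.

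Scg5 was the convertase partner that stood apart between the strains. It encodes a granule protein that escorts the Pcsk2 precursor and is needed for its activation. Scg5 (chromosome 2, 113776362 to 113829121) had 153568 counts in CAST and 49944 in B6, with 1354 TPM in CAST and 685 TPM in B6. This made it 2.52-fold higher in CAST (log2 1.33, 1.32 to 1.35), and it stood at rank 36 of all genes in CAST and 58 in B6. Per TPM of its client Pcsk2 there were 2.04 TPM of Scg5 in CAST and 0.702 in B6, so Scg5 exceeded Pcsk2 in CAST and lay below it in B6. A ratio of TPM within a library does not depend on how the libraries are scaled to each other, although it keeps any shift in the makeup of cells. On the scale of TPM the ratio of Scg5 was just under 2-fold, at log2 0.98, against a median of -0.26 over all genes on that scale.

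Pcsk1n encodes proSAAS, a granule peptide precursor that inhibits Pcsk1. It (chromosome X, 7919822 to 7924410) had 95136 counts in CAST and 79875 in B6, with 448 TPM in CAST and 584 TPM in B6, and a log2 ratio of -0.04 (-0.05 to -0.02). Per TPM of Pcsk1 there were 3.26 TPM of Pcsk1n in CAST and 2.94 in B6. The RNA of the inhibitor therefore exceeded that of its convertase in each strain by a similar factor, unlike the pair of Scg5 and Pcsk2.

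**Figure D2:**
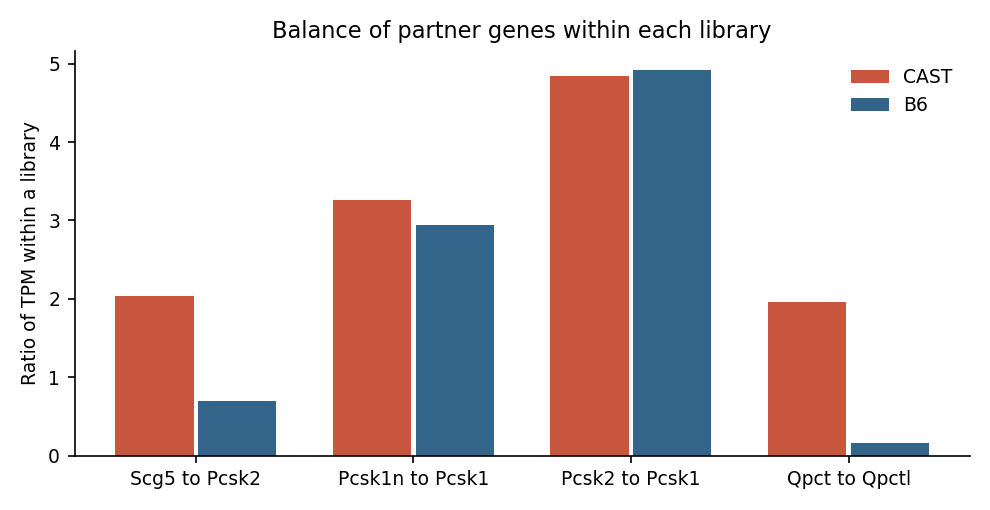
TPM of the first gene divided by TPM of the second within each library, for CAST (left bar of each pair) and B6 (right bar), 1 library each and so without error bars. The ratio of Scg5 to Pcsk2 was 2.04 in CAST and 0.702 in B6 and that of Qpct to Qpctl 1.96 and 0.165, while Pcsk1n to Pcsk1 (3.26 and 2.94) and Pcsk2 to Pcsk1 (4.84 and 4.92) differed less between the libraries.

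The carboxypeptidases were close between the strains. Cpe (chromosome 8, 64592542 to 64693054) had 364605 counts in CAST and 283833 in B6, a log2 ratio of 0.07 (0.07 to 0.08). Its direction depended on the scaling, with -0.08 by total counts and -0.27 by TPM. Relative to the median of all genes under the same scaling it differed by 0.05 with TMM and total counts and by -0.01 by TPM with 1 added. Cpd, a related carboxypeptidase of the trans Golgi network (chromosome 11, 76778424 to 76847018), had 12055 counts in CAST and 10854 in B6, with 15.4 TPM in CAST and 21.6 TPM in B6, and a log2 ratio of -0.14 (-0.18 to -0.10). Cpe exceeded Cpd 117-fold in TPM in CAST and 101-fold in B6.

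**Figure D3:**
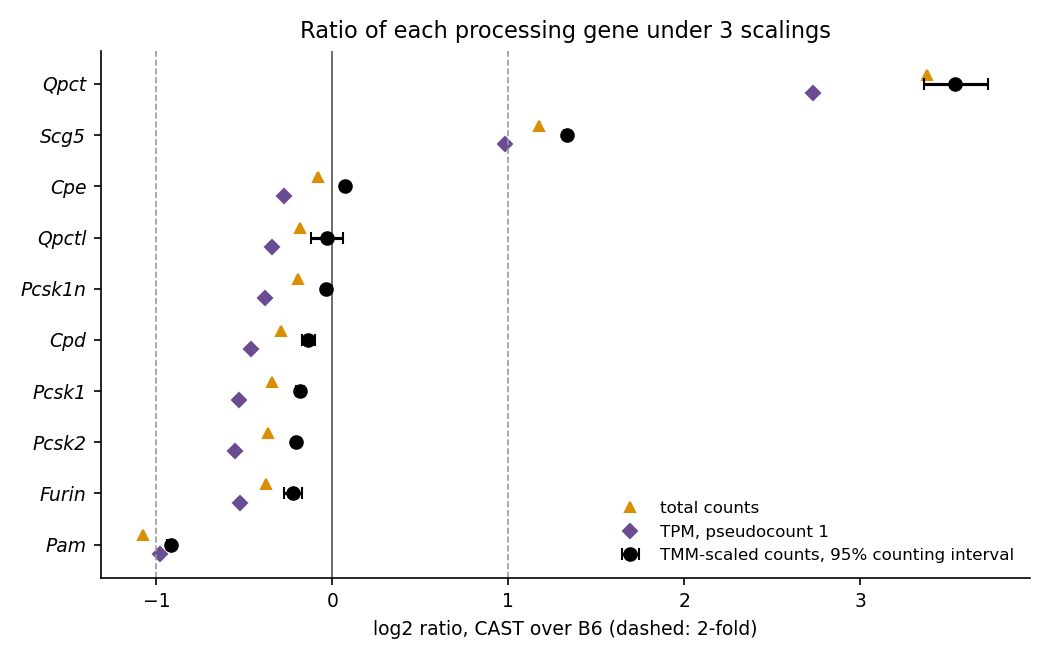
Each processing gene is placed by its log2 ratio of CAST over B6. Circles are TMM-scaled counts with 95% counting intervals, triangles total-count scaling and diamonds TPM with 1 added. Scg5 and Qpct lie to the right under each scaling and Pam to the left, while Cpe changes sides of 0.

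Pam had the lowest ratio of CAST over B6 of the 10. It encodes the only enzyme known to amidate peptides in mammals, with a copper-dependent hydroxylating domain followed by a lyase domain. Pam (chromosome 1, 97795114 to 98095646) had 26983 counts in CAST and 41780 in B6, with 97.0 TPM in CAST and 193 TPM in B6. It was 1.89-fold higher in B6 (log2 -0.92, -0.94 to -0.90). Iapp, Ppy, Pyy and Npy, genes of amidated peptides picked for this comparison after their values were seen, summed to 30907 TPM in CAST and 35885 TPM in B6. Per 1000 TPM of these substrates there were 3.14 TPM of Pam in CAST and 5.37 in B6.

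The transcripts of Pam did not differ alike. Pam-210, the main transcript of each library, was at 56.9 TPM in CAST and 107 TPM in B6. Pam-201 was at 4.56 TPM in CAST and 45.2 TPM in B6, and Pam-202 at 7.87 TPM in CAST and 17.4 TPM in B6. Pam-212, a short annotated transcript of 657 bases, went the other way, with 24.4 TPM in CAST and 17.1 TPM in B6. Pam-201 thus held 4.70% of the gene's TPM in CAST and 23.5% in B6, and Pam-212 25.2% in CAST and 8.88% in B6. TPM corrects for length, so the short Pam-212 weighs far more by TPM than by counts. It had 1421 of the 26983 Pam counts in CAST and 639 of the 41780 in B6. Its annotated coding part, 188.33 codons, is not a whole number of codons. The TPM of Pam as a gene, given above, includes Pam-212. Among the 6 processing genes with several transcripts, Pam was the only gene with a transcript lower in CAST by 10 or more percentage points, which 20.2% of 8981 such genes had. None of the 6 had another main transcript in CAST, against 8.11% of those genes.

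Pam-201 and Pam-202 contain an exon of 318 bases (106 codons, exon 15 of Pam-201, chr1:97864203-97864520) that Pam-210 skips. In the rat an optional exon, exon A, lies between the sequences for the catalytic domains, and whether the exon of 318 bases corresponds to it was not tested. Pam-201 and Pam-202 differ from each other in where exon 24 begins, at chr1:97826038-97826040, which adds 3 bases to Pam-201. Pam-212 skips exons 24 and 25, 258 bases in all. In the rat a transcript form that lacks the membrane-spanning segment near the C-terminus is known, and it was not tested whether Pam-212 corresponds to it. The joins that tell these transcripts apart are shown 5′ to 3′ from the GENCODE M21 transcripts (GRCm38, minus strand), 20 bases on each side, with capitals for the bases that the compared transcript lacks.
Pam-201, into the optional exon: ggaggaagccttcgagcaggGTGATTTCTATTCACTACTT
Pam-201, out of the optional exon: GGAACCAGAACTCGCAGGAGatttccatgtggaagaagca
Pam-210, exon skipped: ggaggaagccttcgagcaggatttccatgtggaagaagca
Pam-201, 3 more bases: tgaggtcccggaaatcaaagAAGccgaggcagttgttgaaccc
Pam-202, 3 bases fewer: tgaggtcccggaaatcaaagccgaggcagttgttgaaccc
Pam-210, into the first of the 2 exons: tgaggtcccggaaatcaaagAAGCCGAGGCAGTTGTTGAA
Pam-212, 2 exons skipped: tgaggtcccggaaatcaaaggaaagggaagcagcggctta

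The optional exon was used less in CAST. Transcripts with it, Pam-201 and Pam-202, were at 12.4 TPM in CAST and 62.6 TPM in B6, a factor of 5.04 between the strains, while Pam-210 without it differed by a factor of 1.88. They took 19.8% of the counts of these 3 transcripts in CAST (exact interval 19.3 to 20.3) and 39.8% in B6 (39.4 to 40.3). Among the transcripts with the exon, the form with 3 bases fewer, Pam-202, took 63.3% of counts in CAST (62.0 to 64.7) and 27.8% in B6 (27.2 to 28.5), so the order of the 2 forms was reversed. Of Pam-212 and Pam-210 together, Pam-212 took 6.54% of counts in CAST (6.21 to 6.87) and 2.53% in B6 (2.34 to 2.73). These intervals leave out the uncertainty of dividing reads among transcripts. Pam-210 also lacks the first exon of Pam-201 and Pam-202, so the division did not rest on the optional exon alone. A processed pseudogene in an intron of Pam, Gm3531, was listed with 1347 counts in CAST and 0 in B6, and the search for near-identical sequences found no match of it to Pam.

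**Figure D4:**
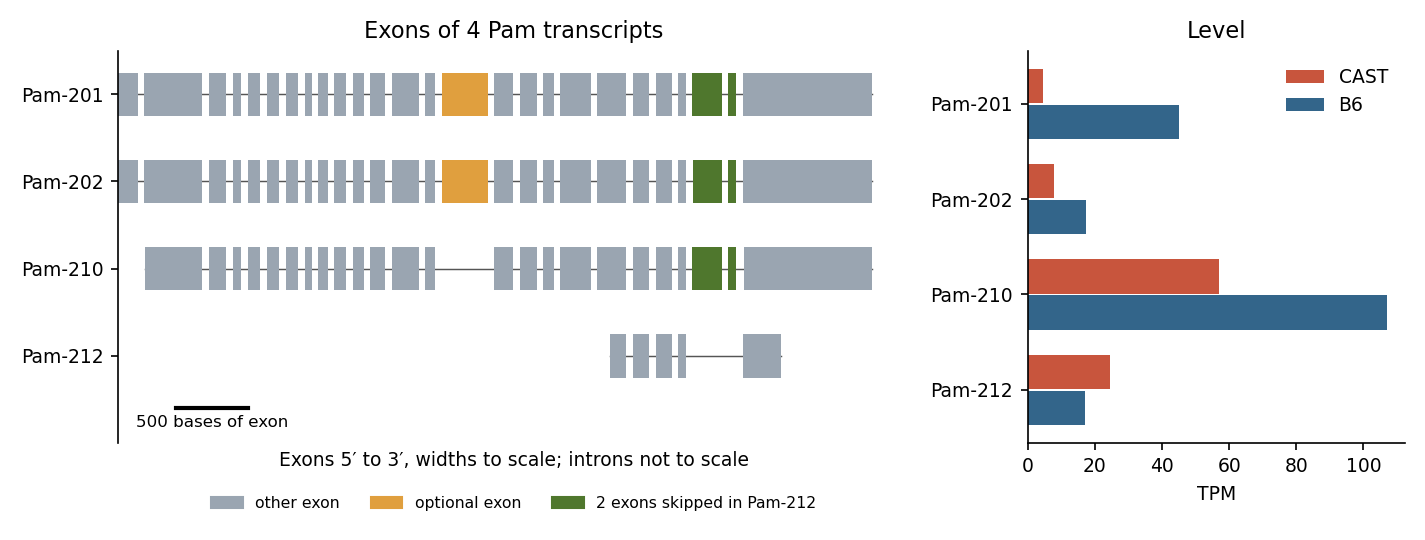
Left, exons of 4 Pam transcripts to scale from 5′ to 3′, with the optional exon and the pair of exons that Pam-212 skips in colour. Right, TPM of each transcript, with the CAST bar above the B6 bar. Pam-201 shows the widest ratio of the 4, with 4.56 TPM in CAST against 45.2 TPM in B6, and Pam-212 is the transcript of the 4 that is higher in CAST.

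Qpct had the widest ratio of the 10. It encodes the secreted glutaminyl cyclase, whereas Qpctl encodes the related cyclase held in the Golgi. Qpct (chromosome 17, 79051906 to 79090378) had 3823 counts in CAST and 269 in B6, with 20.6 TPM in CAST and 2.25 TPM in B6. It was 11.6-fold higher in CAST (log2 3.54, 3.36 to 3.72), and its rank among all genes was 3317 in CAST and 11327 in B6. Qpctl (chromosome 7, 19139702 to 19149291) had 2139 counts in CAST and 1786 in B6, with 10.5 TPM in CAST and 13.7 TPM in B6. Its log2 ratio of -0.03 had the only interval of the 10 genes that held 0 (-0.12 to 0.06). Qpct was at 1.96 TPM per TPM of Qpctl in CAST and at 0.165 in B6, so the RNA of the secreted form led in CAST and that of the Golgi form in B6. Each has 1 annotated transcript in the files, so the ratio of Qpct does not rest on a division among its own transcripts.

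Against the hormones as a whole 8 of the 10 processing genes were lower in CAST, and Scg5 and Qpct were higher. By TPM with 1 added the median log2 ratio over all genes was -0.26, while the summed hormone genes were higher in CAST. A typical gene was therefore also lower against the hormones, and the count of 8 is not particular to the processing genes. Ins1, Ins2, Gcg, Sst, Iapp, Ppy, Pyy and Ghrl, 8 hormone genes, made up 60.5% of all TPM in CAST and 56.6% in B6. Per 1000 TPM of them Cpe was at 2.99 TPM in CAST and 3.86 TPM in B6, Pcsk2 at 1.10 in CAST and 1.73 in B6, and Pcsk1 at 0.227 in CAST and 0.351 in B6. Pam was at 0.160 in CAST and 0.340 in B6. Scg5 was at 2.24 in CAST and 1.21 in B6, and Qpct at 0.0341 in CAST and 0.00398 in B6. The 10 genes together held 0.969% of counts in CAST (exact interval 0.967 to 0.970) and 1.05% in B6 (1.04 to 1.05).

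Related genes were read from lists chosen by role, each beside the shares of all genes given above. Among 8 other convertases and serine proteases, with a median log2 ratio of 0.02, a 2-fold excess was seen in CAST for 1 and in B6 for 3. Pcsk4, a convertase known from sperm, had 1240 counts in CAST and 3184 in B6 (log2 -1.65, -1.75 to -1.55). Tmprss2 had 510 counts in CAST and 909 in B6 (log2 -1.12), and Tmprss6, known from hepcidin control in liver, 20 in CAST and 178 in B6 (-3.41). Pcsk5 had 184 counts in CAST and 59 in B6 (log2 1.34, 0.92 to 1.80). All 4 were scarce beside Pcsk1 and Pcsk2, with at most 5.84 TPM in CAST and 23.0 TPM in B6, both for Pcsk4. By TPM with 1 added, Pcsk5 (log2 0.16) and Tmprss6 (-0.82) were under 2-fold.

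The other carboxypeptidases of the Cpe family had 5 of 6 genes past the minimum, of which 2 were at least 2-fold higher in CAST. They were Cpxm1, with 150 counts in CAST and 39 in B6 (log2 1.64), and Aebp1, a collagen-binding matrix protein, with 407 in CAST and 146 in B6 (1.19). By TPM with 1 added both were under 2-fold, with log2 ratios of 0.39 for Cpxm1 and 0.34 for Aebp1. The lowest was Cpxm2 (-0.22, -0.63 to 0.19), and the list's median was 0.21. Fibroblast markers were also higher in CAST, as given above, and their part in these ratios was not tested.

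Proteases that trim or degrade peptides had 9 of 10 genes past the minimum, all within 2-fold, with a median of -0.06. They ranged from Rnpep, an aminopeptidase for basic residues (log2 -0.34), to Ctsl, cathepsin L (0.56). Other peptide modifying enzymes had a median of 0.07, and 8 of 9 were within 2-fold. Tpst1, a tyrosine sulfotransferase, was 2.31-fold higher in B6, with 1192 counts in CAST and 2258 in B6, and the highest was its relative Tpst2 (log2 0.35, and -0.02 at the lowest of the scalings). The list of genes that supply copper, ascorbate and acid to these enzymes also held Slc30a8, a zinc transporter gene and beta cell marker. Its genes were all within 2-fold, 12 of 12, with a median of 0.16. Their extremes were the copper carriers Atp7b (0.69) and Slc31a1 (-0.63), which imports copper into cells.

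The prohormone and granin substrates ranged more widely. Of 19 genes 17 were past the minimum, with a median of 0.37, and a 2-fold excess was seen in CAST for 4 and in B6 for 0. Npy, the neuropeptide Y gene, whose product is amidated, had 33351 counts in CAST and 744 in B6, or 680 TPM in CAST and 23.6 TPM in B6 (log2 5.20, 5.09 to 5.30). Ghrl, the ghrelin gene, was at 44.1 TPM in CAST and 16.7 TPM in B6 (log2 1.76), and Scg2, a granin gene, at 6554 TPM in CAST and 2894 TPM in B6 (1.53). Vgf, a granin-like precursor gene, was at 19.9 TPM in CAST and 11.5 TPM in B6 (1.14, but 0.99 by total counts and 0.75 by TPM with 1 added, both under 2-fold). Sst, the somatostatin gene, was the lowest at log2 -0.90 (-1.05 by total counts), with 3489 TPM in CAST and 8290 TPM in B6.

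**Figure D5:**
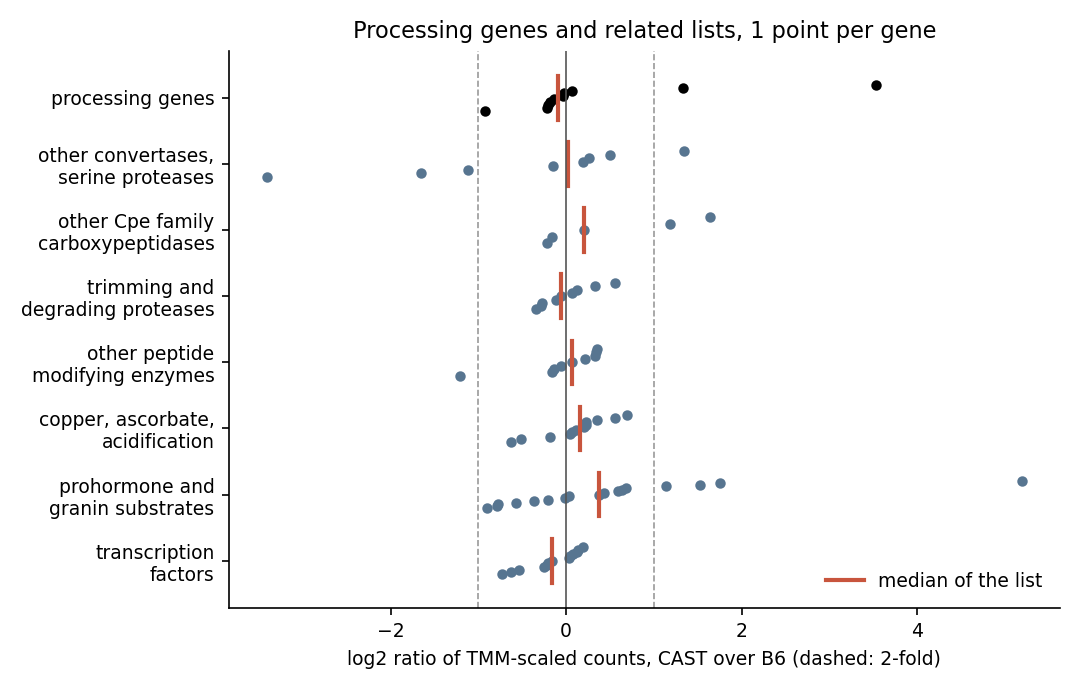
The horizontal axis is the log2 ratio of CAST over B6 of TMM-scaled counts, with 1 point per gene past the minimum of 100 counts, for the processing genes and 7 related lists, with the median of each list as a vertical bar. The widest points are Npy (5.20), Qpct (3.54) and Tmprss6 (-3.41), and most other genes lie between the dashed 2-fold lines.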

How the data were processed

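Each deposited file gives 94545 Ensembl transcripts, each with an expected count, which the authors made with RSEM on GRCm38 per the submitters' processing notes, and a second number with no header. That deposited number sums to 1 per file and was taken to be a fraction of transcript molecules, which multiplied by 1000000 gives TPM. Counts over fractions tracked the annotated lengths (rank correlation 0.965 in CAST and 0.962 in B6). The aligner, the annotation used and the strand setting are not given in the sources, so reads of antisense genes cannot be told apart. Counts were summed per gene and rounded, and 37607 of 38924 gene IDs matched a symbol in GENCODE M21.

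Ratios used TMM factors (edgeR 4.0.16, R 4.3.3; 0.947 for CAST, 1.06 for B6) with 0.5 added to each count, and exact Clopper-Pearson 95% intervals of the part of its counts found in CAST. Counting error is all that they cover, as reads are not independent molecules. With 1 library per strain no test was run. Alternatives used DESeq2 1.42.0 size factors, total counts, TPM, other filters and single transcripts. Near-identical copies (minimap2 2.31, 95% identity over 200 bases and 50% of the shorter transcript) were found for 0 of the 10 genes. Of the 10, 5 overlap another annotated gene; Pcsk2os1, antisense to Pcsk2, had 747 counts in CAST and 1217 in B6. The ratio computation was tested on counts simulated with counting error only and scaled by total counts. That test does not reach TMM scaling, the division of reads among transcripts or the spread between mice. The members and lists were chosen with earlier results of these data known. From the related lists the text names the highest and lowest gene and each gene at least 2-fold apart, among those with 100 or more counts. Not every gene that this rule names is reported here. Scripts ran in Python 3.11.15 with matplotlib 3.10.9, pandas 2.3.3, scipy 1.17.1 and numpy 2.4.6.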

Additional observations from a re-analysis of the deposited data

How the results depend on the processing

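Under 9 alternatives the direction of a gene's ratio was that of TMM scaling in 87 of 90 values. The exceptions were Cpe by total counts (-0.08) and by TPM with 1 or 0.1 added (-0.27 each). Part of this agreement was fixed in advance. The lower or absent count minimum and the adding of near-identical copies could change none of the 10 genes. All 10 had passed the main minimum and 0 had such a copy. The single-transcript setting could not change a gene with 1 annotated transcript. Size factors and total counts shift all genes alike, so only genes near equality could change direction. The 87 values are therefore not independent checks. The count of genes at least 2-fold higher in CAST was 2 and fell to 1 by TPM with 1 or 0.1 added, where Scg5 came to log2 0.98. The count at least 2-fold higher in B6 was 0, and 1 by total counts, where Pam came to log2 -1.08. The median of the 10 genes was -0.09, and -0.24 by total counts, -0.42 by TPM with 1 added and -0.43 by TPM with 0.1 added, where the medians of all genes were -0.14, -0.26 and -0.32. With the most abundant transcript only, Pam came to log2 -0.56. Qpct ranged from 2.73 to 3.54. No paired analysis was possible because each strain has 1 library. The 269 counts of Qpct in B6 set the width of its interval. How far mice of a strain differ cannot be estimated from these libraries.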

Other observations

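Transcription factors known to act on hormone and processing genes in beta or alpha cells were all within 2-fold, 13 of 13, with a median log2 ratio of CAST over B6 of -0.16. The highest was Mafa, the beta cell factor, with 18158 counts in CAST and 13015 in B6 (log2 0.19, 0.16 to 0.22, and -0.16 at the lowest of the scalings).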
